A study of Mus musculus with 18 samples.

Results

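Chemokines are small secreted or membrane-tethered proteins that steer leukocytes and some other cells along concentration gradients, and they act through G protein-coupled receptors on the responding cell. The genes described here are the 57 of 51435 genes in the deposited table whose mouse symbol belongs to the Ccl, Cxcl, Cx3c, Ccr, Cxcr or Ackr families and which are annotated as protein-coding, 36 of them ligands and 21 receptors. They were measured by RNA-seq of the left ventricle in 18 mice after 28 days of angiotensin II (AngII), the effector hormone of the renin system, which constricts vessels and leads to hypertrophy and fibrosis of the heart. Of these mice, 9 were WT and 9 were WWP2 Mut/Mut, and the comparison asks what the mutation did to the AngII-treated ventricle. WWP2 is an E3 ubiquitin ligase, an enzyme that tags other proteins with ubiquitin.

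The WWP2 Mut/Mut mice were homozygous for a 4-bp deletion in exon 2, made with CRISPR/Cas9 on the C57BL/6J background, and the WT mice were their littermates. The frameshift lies in the part of the gene used by the full-length and N-terminal isoforms, and the gene-level values used here do not separate the isoforms. In both genotypes a pump under the skin delivered AngII at 500 ng/kg/min from 8 weeks of age. No mice without AngII are compared here, so the values say nothing of what AngII itself changed.

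In the heart, chemokine ligands come from endothelium, fibroblasts, macrophages and other cells, and they recruit and hold monocytes, lymphocytes and granulocytes. CC ligands such as Ccl2 and Ccl5 attract mainly monocytes and lymphocytes, while CXC ligands include neutrophil attractants, the interferon-inducible attractants of T cells and homeostatic ligands such as Cxcl12. Atypical receptors (Ackr) bind chemokines without the usual G protein signalling and clear or present them.

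The subfamilies are named for the spacing of the first cysteines of the protein. The coding stretches below are shown because they carry that spacing in 5 of the ligands found in this tissue. They are read 5′ to 3′ from GENCODE M21 transcripts on GRCm38, with the codons of the first pair of cysteines in capitals. The 2 CC ligands have 0 codons between them, the 2 CXC ligands have 1 and Cx3cl1 has 3.
Ccl12: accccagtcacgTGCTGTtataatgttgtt
Ccl21a: gggggtcaggacTGCTGCcttaagtacagc
Cxcl12: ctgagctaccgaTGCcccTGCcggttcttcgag
Cxcl9: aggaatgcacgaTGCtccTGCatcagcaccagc
Cx3cl1: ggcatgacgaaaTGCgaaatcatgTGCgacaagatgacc

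Upstream sequence was matched by symbol in the RefSeq promoter table (GRCm38.p6), which holds the upstream sequence of 42 of the 57 genes. The window listed under Ccl21b lies far from that gene and is not followed by its transcript, and was left out. Those of Ccl1, Ccr9, Ccr4 and Cx3cr1 lie 125878, 88772, 8372 and 1583 bases from the annotated gene start and were kept, since each is followed by sequence of a transcript of its gene. The 250 bases before the start are shown for 4 genes. Ackr3 and Cxcr4 are the receptors of Cxcl12 described below, neither of which passed the FDR, and Ccl6 and Ccl9 are neighbours whose levels rose and fell together across mice. Ackr3 is given at chr1:90203730-90203979 (plus strand), Cxcr4 at chr1:128592300-128592549 (minus strand), Ccl6 at chr11:83593088-83593337 (minus strand) and Ccl9 at chr11:83578637-83578886 (minus strand). Capitals mark a match on either strand to 1 of 6 motifs.
Ackr3: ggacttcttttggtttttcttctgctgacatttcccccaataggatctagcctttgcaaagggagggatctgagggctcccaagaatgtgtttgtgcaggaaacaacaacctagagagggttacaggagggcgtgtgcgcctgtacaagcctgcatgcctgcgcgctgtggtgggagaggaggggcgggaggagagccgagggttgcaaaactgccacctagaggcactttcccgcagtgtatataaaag
Cxcr4: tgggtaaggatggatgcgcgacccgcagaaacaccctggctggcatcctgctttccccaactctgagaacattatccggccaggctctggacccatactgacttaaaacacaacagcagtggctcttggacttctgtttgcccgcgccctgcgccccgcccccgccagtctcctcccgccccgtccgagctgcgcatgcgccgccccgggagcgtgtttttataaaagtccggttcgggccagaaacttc
Ccl6: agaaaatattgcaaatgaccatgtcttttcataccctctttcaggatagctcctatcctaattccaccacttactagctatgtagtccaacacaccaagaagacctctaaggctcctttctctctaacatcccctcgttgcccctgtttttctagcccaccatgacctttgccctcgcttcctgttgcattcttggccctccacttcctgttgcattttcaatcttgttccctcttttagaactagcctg
Ccl9: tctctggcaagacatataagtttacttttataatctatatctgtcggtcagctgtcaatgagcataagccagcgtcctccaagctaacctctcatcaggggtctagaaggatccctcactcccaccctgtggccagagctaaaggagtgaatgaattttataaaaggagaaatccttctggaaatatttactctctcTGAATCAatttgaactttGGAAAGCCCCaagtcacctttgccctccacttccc

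Of these 4 windows, Ccl9 held a match and the other 3 held none. Its AP-1 match (TGANTCA) began at position -53 from the start and its kappaB-like match (GGG and TTCC set 3 bases apart) at position -35. Among the 42 genes, 8 held the kappaB-like letters (19.0%, against 4.65% of 32851 promoters). They were Ccl1, Ccl9, Ccl20, Cxcl1, Cxcl2, Cxcl3, Cxcl10 and Ccr3, with 2 separate places each in Cxcl1, Cxcl2, Cxcl3 and Cxcl10. AP-1 letters were in 5 (11.9%, against 6.75%), ISRE-like letters (GAAA and GAAA set 2 bases apart) in 3 (7.14%, against 2.98%) and GAS-like letters (TTCNNNGAA) in 3 (7.14%, against 7.02%). The core of the hypoxia response element (ACGTG) was in 4 (9.52%, against 16.6%) and the SMAD-type CAGA box (CAGACA) in 8 (19.0%, against 17.1%). A match is a description of letters and was not tested as a binding site.

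The targeted gene was checked first. Wwp2 ranged from 3.83 to 6.01 TPM in WT and from 1.19 to 3.00 TPM in mutants, so every mutant lay below every WT mouse (log2 fold change -1.40, SE 0.16, edgeR FDR 0.00113). Libraries held 24566994 to 37451087 expected counts. Markers of ventricle summed to 22456 to 34997 TPM and those of atrium to 318 to 1181 TPM, and Nppa made up most of the atrial sum in 17 of 18 libraries. In WT mouse 45-1 it was 354 of 982 TPM. The other atrial genes Myl7, Myl4 and Sln together were at 93.1 to 628 TPM in 5 libraries (3 WT, 2 mutant) and at 1.80 to 17.1 TPM in the other 13, so these 5 held atrial transcripts. Without them, 6 chemokine genes had an unadjusted p below 0.05 in edgeR (2.12% of all genes) and 0 passed the FDR. These were the 5 described below and Ackr4 (log2 fold change -0.45, SE 0.20), with Ccl2 at -0.55 and Ackr3 at -0.42. Transcripts of liver moved with genotype, at 4.52 to 316.8 TPM in WT and 4.76 to 58.2 TPM in mutants, and all 8 liver genes were lower in mutants at an unadjusted p below 0.05. RNA concentration had a median of 98.3 ng/ul in WT and 187.4 ng/ul in mutants, and its part in the differences below was not tested apart from the fits with and without it.

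The ventricle expressed a small set of these genes well and most of them barely. TPM, a gene's share of all transcripts in a mouse, is corrected for gene length, so levels can be compared between genes. At a mean of 1 TPM or more were 22 of the 57 genes, 18 ligands and 4 receptors. Another 13 lay between 0.1 and 1 TPM and 22 below 0.1 TPM. A count was present in all 18 mice for 36 genes, and Ccl20, Ccl26 and Ccr4 had none in any mouse. The summed level was 195 ± 30.5 TPM (SD, n = 9) in WT and 170.0 ± 20.2 TPM (SD, n = 9) in mutants, and the 3 highest genes made up 54% of the mean over mice.

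**Figure D1:**
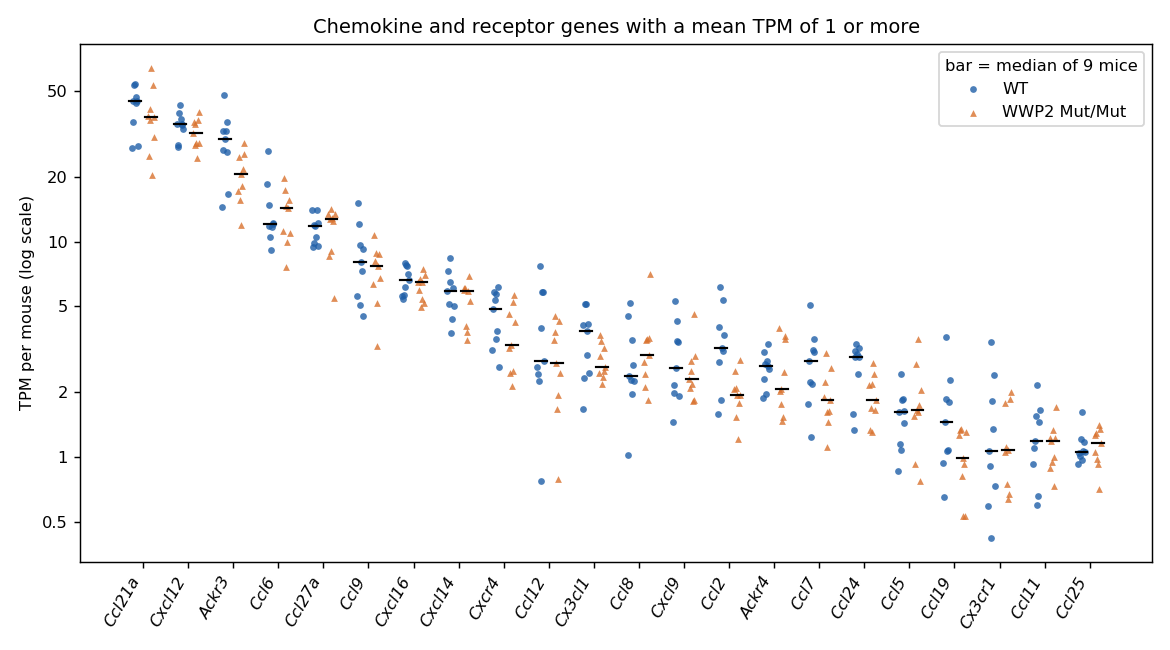
TPM in each of the 18 mice (log scale) for the 22 chemokine and receptor genes with a mean of 1 TPM or more, ordered by mean, with WT as circles, WWP2 Mut/Mut as triangles and a bar at the median of 9 mice. Ccl21a, Cxcl12 and Ackr3 lie above all others on average, and the genotypes overlap in every gene.

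The 3 highest genes are homeostatic. Ccl21a, a ligand for CCR7, ranged from 27.3 to 53.9 TPM in WT (median 44.7) and from 20.4 to 64.2 TPM in mutants (median 37.7). Cxcl12, the ligand that CXCR4 and ACKR3 share, ranged from 27.4 to 42.8 TPM in WT (median 35.0) and from 24.4 to 40.0 TPM in mutants (median 32.04). Ackr3, the atypical receptor that scavenges CXCL12, had a mean of 24.8 TPM over all mice. Ccl21a exceeded Cxcl12 in 13 of 18 mice and Cxcl12 exceeded Ackr3 in 15 of 18. Below them came Ccl6 at 13.8 TPM, Ccl27a at 11.4, Ccl9 at 7.91, Cxcl16 at 6.43, Cxcl14 at 5.56 and Cxcr4 at 4.13 TPM on average. From Ccl12 (3.33 TPM) to Ccl25 (1.12 TPM) the order is loose, and each gene exceeded the next one in 8 to 13 of the 18 mice.

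Levels of some genes rest on reads shared with near copies. Ccl21a had fractional counts in 16 mice, and 80.6% of the 31-base words in its transcripts also occur in Ccl21b or in 3 predicted genes. For Ccl27a the share was 57.0% and for Ccl19 58.8%, so the levels of these 3 genes are uncertain. Ccr2, the receptor for CCL2, shared 3.41% of its words with other genes and had fractional counts in 6 mice.

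No chemokine or receptor gene differed between genotypes past the correction for all genes. Genotype was tested with edgeR's quasi-likelihood test on rounded expected counts, with RNA concentration and sequencing lane as covariates, over 24804 genes. Of the 52 chemokine and receptor genes tested, 0 passed an FDR of 0.05 (Benjamini-Hochberg over all genes), against 0.00403% of all genes, which was Wwp2 alone. DESeq2 also called 0. At an unadjusted p below 0.05 there were 5 of 52 (9.62%), against 3.66% of all genes. Of these, 2 were higher in mutants (1.09% of all genes) and 3 lower (2.57%). DESeq2 gave 5 as well, against 2.41% of all genes. Without covariates edgeR gave 3 (4.6% of all genes), and with lane alone 2 (2.75%). The log2 fold change was below 0 in 29 of 52 (51.9% of all genes), with a median of -0.05 against -0.01 over all genes. No gene of the 52 separated the genotypes without overlap, against 0.00403% of all genes.

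For the 22 genes at 1 TPM or more, 20 had a 95% interval of the log2 fold change that stayed within 1 of 0. Cxcl12 stood at -0.05 (95% interval -0.31 to 0.21) and Ccl21a at 0.02 (-0.41 to 0.46). The direction depended on the scale. On the mean TPM, 19 of the 22 were lower in mutants, and on CPM with TMM normalization 11 were, with the sign turned in 8 genes. The matching share of all genes was not computed. Genes in general also lay lower on TPM, where 12.5% of the 11336 genes at that level were lower in every lane, against 3.05% on TMM-normalized CPM.

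**Figure D2:**
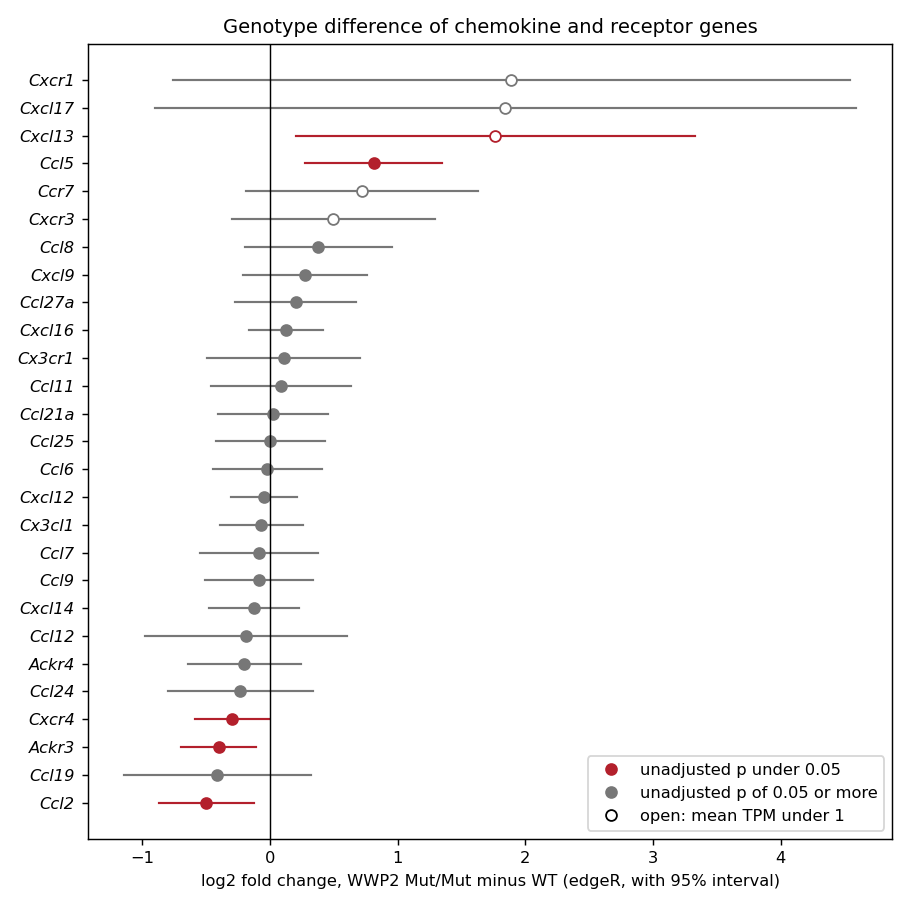
Log2 fold change (WWP2 Mut/Mut minus WT, edgeR) with its 95% interval for the 22 genes with a mean of 1 TPM or more and the 5 further genes among the 10 with the smallest p, open symbols marking a mean under 1 TPM. The 5 genes with an unadjusted p below 0.05 are red, and none passed the FDR.

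Among the inflammatory CC ligands, Ccl2 and Ccl5 had the smallest p, in opposite directions. Ccl2 (MCP-1) recruits CCR2-bearing monocytes. It ranged from 1.59 to 6.13 TPM in WT (median 3.21) and from 1.21 to 2.81 TPM in mutants (median 1.95). All 9 mutants lay below the WT median, and 6 of 9 WT mice lay above every mutant. Its log2 fold change was -0.50 (SE 0.18, unadjusted p = 0.0112, edgeR FDR 0.991). On TPM the means were 3.52 ± 1.49 and 1.99 ± 0.477 (SD, n = 9 each; two-sided exact permutation test, unadjusted p = 0.00588). This test was run on the 10 genes with the smallest p in edgeR, and once its p values were adjusted over those 10, 0 were below 0.05. It was lower in mutants in 4 of 4 lanes, at 5.73 against 2.44 TPM in lane 3 and 2.31 against 1.65 TPM in lane 2. Mean TPM was lower in every lane for 5 of the 22 genes at 1 TPM or more (Ccl2, Ccl7, Ccl24, Ackr3 and Cxcr4; 22.7%), against 12.5% of the 11336 genes at that level. On TMM-normalized CPM this held for 4 of the 22, without Ccl7 (18.2%, against 3.05%). The levels of Ccl2 rest on 35 to 161 counts per mouse. In bulk tissue, fewer cells of a type and less RNA per cell cannot be told apart. WT mouse 43-3, deposited with an RNA concentration of 1.68 ng/ul, was the highest for both Ccl2 and Ackr3, and without it the log2 fold changes were -0.50 and -0.39.

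Ccl5 (RANTES), made largely by T and NK cells, ranged from 0.86 to 2.44 TPM in WT (median 1.62) and from 0.77 to 3.52 TPM in mutants (median 1.65). The groups overlap almost fully, and mutants 52-1 and 24-3, at 3.52 and 2.71 TPM, were above all WT mice. The log2 fold change of 0.81 (SE 0.26, unadjusted p = 0.00522, edgeR FDR 0.943) came with the covariates. Without them it was 0.45 (edgeR unadjusted p = 0.122, FDR 0.984), and with lane alone 0.49 (edgeR unadjusted p = 0.0882, FDR 0.9997). The TPM means, 1.55 ± 0.480 and 1.84 ± 0.850 (SD, n = 9 each), gave p = 0.401 in the two-sided exact permutation test. Beside it, 6 of 7 T cell markers and 5 of 5 NK cell markers had a log2 fold change above 0, and 0 of them had an unadjusted p below 0.05. A value above 0 was also found in 7 of 8 leukocyte, 5 of 5 B cell and 5 of 5 platelet markers. It was found in 4 of 4 mast cell, 4 of 5 dendritic cell and 4 of 6 neutrophil markers. In macrophages it was found in 4 of 11 and in monocytes in 2 of 5, while 51.9% of all genes lay below 0. On mean TPM 4 of the 5 NK cell markers were lower in mutants. Their sums were 1.13 to 2.13 TPM in WT and 1.15 to 2.58 TPM in mutants for T cells, and 0.89 to 3.29 and 0.94 to 3.96 TPM for NK cells, and their part in the result was not tested.

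The other inflammatory CC ligands were not past the test. Ccl6 and Ccl9, which macrophages make in mice, had log2 fold changes of -0.02 and -0.09. Ccl7, Ccl8 and Ccl12, like Ccl2 attractants of monocytes, had -0.09, 0.38 and -0.19. Ccl8 held 1 high mutant, 8-2, at 7.10 TPM, and its log2 fold change ran from 0.23 to 0.58 when 1 mouse was left out. Ccl3 and Ccl4, the macrophage inflammatory proteins, were low at 0.129 and 0.281 TPM. The group summed to 37.6 ± 9.44 TPM in WT and 33.1 ± 6.93 TPM in mutants (SD, n = 9 each).

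Atypical receptors were all 4 on the negative side in edgeR and on mean TPM, with 1 at an unadjusted p below 0.05, while on mean CPM 2 of them, Ackr2 (0.01) and Ackr4 (0.10), were above 0 on the log2 scale. Ackr3 ranged from 14.5 to 47.7 TPM in WT (median 29.9) and from 11.9 to 28.6 TPM in mutants (median 20.6). All 9 mutants were below the WT median, and 5 of 9 WT mice above every mutant. The log2 fold change was -0.40 (SE 0.14, unadjusted p = 0.0104, edgeR FDR 0.980). The means were 29.2 ± 10.03 and 20.4 ± 5.31 TPM (SD, n = 9 each; two-sided exact permutation test, unadjusted p = 0.0313). It was lower in mutants in 4 of 4 lanes, from 41.9 against 21.3 TPM in lane 3 to 20.3 against 16.2 TPM in lane 1. Ackr4, Ackr2 and Ackr1 had log2 fold changes of -0.20, -0.11 and -0.04. Markers of fibroblasts were also on the negative side in 6 of 6 genes, with 0 at an unadjusted p below 0.05 and sums of 166 to 447 TPM in WT and 168 to 346 TPM in mutants. So were 4 of 4 markers of lymphatic endothelium (5.05 to 14.9 and 5.02 to 11.2 TPM) and 4 of 4 of mesothelium (1.45 to 6.06 and 1.13 to 4.81 TPM), with 0 at that p. Markers of endothelium were mixed, with 2 of 5 above 0, and 51.9% of all genes were below 0. The part of these cells in the values of Ackr3 was not tested.

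Cxcr4, the signalling receptor for CXCL12, ranged from 2.62 to 6.15 TPM in WT (median 4.86) and from 2.14 to 5.63 TPM in mutants (median 3.31). The genotypes overlap over most of this range. The log2 fold change was -0.30 (SE 0.14, unadjusted p = 0.0439, edgeR FDR 1). Without covariates it was -0.13 (edgeR unadjusted p = 0.342, FDR 0.99998), and with lane alone -0.19 (edgeR unadjusted p = 0.129, FDR 0.9997). Over the 12 other fits with all mice it ran from -0.54 to -0.13. The two-sided exact permutation test on TPM gave p = 0.172.

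**Figure D3:**
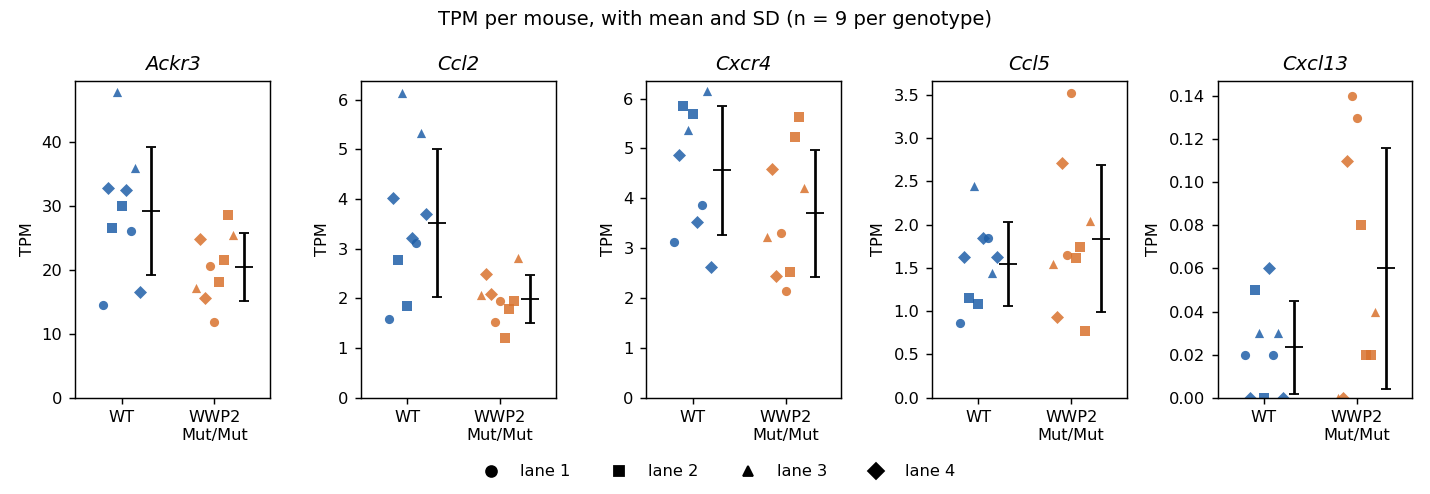
TPM in each mouse for the 5 genes with an unadjusted p below 0.05 (9 WT in blue, 9 WWP2 Mut/Mut in orange, marker shape giving the lane, black bar and whiskers giving mean and SD). The genotypes overlap in all 5, and mutant Ccl2 values stop at 2.81 TPM while WT reach 6.13 TPM.

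Cxcl13, the B cell attractant of lymphoid follicles, had the largest fold change of the 5 on the fewest reads. Its TPM was 0 to 0.06 in WT and 0 to 0.14 in mutants, from at most 3 counts per WT mouse and 5 per mutant. The log2 fold change was 1.76 (SE 0.74, unadjusted p = 0.0290, edgeR FDR 1), and the exact permutation test on TPM gave p = 0.0974. Without covariates it was 1.43 (edgeR unadjusted p = 0.0536, FDR 0.956), and with lane alone 1.30 (edgeR unadjusted p = 0.0907, FDR 0.9997). At this depth the fold is poorly set. The other homeostatic CXC ligand with a level over 1 TPM beside Cxcl12 was Cxcl14, a skin and mucosal chemokine, at -0.13 on the log2 scale. Cxcl17 and Cxcr1, 2 of the 10 smallest p values, had counts in 2 mice each.

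Interferon-inducible, membrane-bound and eosinophil-attracting ligands had no gene with an unadjusted p below 0.05. Cxcl9 and Cxcl10, attractants of CXCR3-bearing T cells, had log2 fold changes of 0.28 and -0.09. The membrane-bound ligands Cxcl16 and Cx3cl1 had 0.13 and -0.07. Ccl11 and Ccl24 (eotaxins) had 0.08 and -0.23. Ccl24 had all 9 mutants below the WT median on TPM, as did Cx3cl1 and Ccl19. With Ccl2 and Ackr3 this made 5 of the 22 genes (22.7%), against 4.31% of the 11336 genes at 1 TPM or more. On TMM-normalized CPM it held for 2 of the 22 (9.09%), Ackr3 and Ccl2, against 0.935% of those genes. Among the CC receptors, Ccr7, which guides dendritic and T cells to lymph nodes, stood at 0.72 (SE 0.43), and at 0.29 without covariates and 0.33 with lane alone. Its TPM means were 0.228 and 0.254 (two-sided exact permutation test, p = 0.683). Ccr2 stood at -0.13. Cx3cr1, the fractalkine receptor of monocytes and macrophages, stood at 0.11.

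Genes of the pathway outside the symbol families were examined from a fixed list. Of 12 other chemokine genes tested, 1 had a positive log2 fold change at an unadjusted p below 0.05 in edgeR (1.09% of all genes) and 0 a negative one (2.57%). It was Cd74, which encodes the MHC class II invariant chain and also serves as a receptor for the cytokine MIF. It stood at 0.40 (SE 0.18, unadjusted p = 0.0374, edgeR), while its TPM means were 107.9 in WT and 111.7 in mutants (two-sided exact permutation test, p = 0.758). Of 39 signalling genes downstream of chemokine receptors, 1 had a positive log2 fold change at that p and 0 a negative one, against the same shares of all genes. It was Rgs2, which shortens G protein signalling, at 0.65 (SE 0.25, unadjusted p = 0.0168, edgeR), with p = 0.464 in the exact permutation test on TPM.

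Leukocyte markers overlapped between the genotypes. Ptprc, which encodes the pan-leukocyte CD45, was at 1.47 ± 0.471 TPM in WT and 1.26 ± 0.539 TPM in mutants (SD, n = 9 each), with a log2 fold change of 0.02 (SE 0.21, unadjusted p = 0.927, edgeR). Of the 8 leukocyte markers 1 had an unadjusted p below 0.05, Cd52, at 0.67 (SE 0.19), and their sum was 60.9 to 107 TPM in WT and 69.2 to 94.8 TPM in mutants. Among other markers, Clec9a (a dendritic cell receptor, 1.26, SE 0.40) and Cma1 (mast cell chymase, 0.73, SE 0.32) had positive log2 fold changes in edgeR and the adipocyte gene Plin1 (-1.63, SE 0.71) a negative one, all at an unadjusted p below 0.05 only. On TPM the means of Clec9a were 0.101 in WT and 0.107 in mutants (two-sided exact permutation test, p = 0.871). The exact permutation test gave p = 0.0969 for Cma1, 0.182 for Plin1 and 0.226 for Cd52. With the leukocyte markers as a further covariate, Ackr3 stood at -0.43 and Ccl2 at -0.57.

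Variation between mice was larger for these genes than for genes in general. The biological coefficient of variation had a median of 26.9% over the 22 genes at 1 TPM or more and of 19.4% over the 11336 genes at that level. By this coefficient Ccl12 varied most of the 22 (45.4%), from 0.77 to 7.66 TPM in WT and from 0.79 to 4.51 TPM in mutants. Cxcl12 varied least of the highest genes, with a coefficient of 17.1%. The 22 genes and the 11336 were not matched for expression level, and the part of level in this difference was not tested.

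Ligands were then set beside their receptors across the 18 mice, on log2 CPM with TMM normalization. Of 11 pairs, 0 passed a Benjamini-Hochberg adjusted p of 0.05. The closest was Cxcl13 with its receptor gene Cxcr5 (Pearson r = 0.555, permutation p = 0.0171, adjusted 0.154; Spearman rho = 0.547, p = 0.0212), which was 0.614 without the 2 mice farthest out. Cxcl13 had 32 counts in all and 0 in 5 of 18 mice, so its values rest largely on the prior count. Ccl2 with Ccr2 had r = 0.515 (permutation p = 0.0279, adjusted 0.154; rho = 0.387, p = 0.112), and 0.363 without the 2 mice farthest out. Cxcl12 with Cxcr4 had r = 0.392 and with Ackr3 r = 0.179. Leaving out 1 mouse gave 0.292 to 0.544 with Cxcr4 and -0.032 to 0.257 with Ackr3. On log2(TPM + 1) the values were 0.414 and 0.373. Of the 22 genes at 1 TPM or more, 0 followed Ptprc at an adjusted p of 0.05, and none had r above 0.6, against 1.90% of 11335 other genes. On log2(TPM + 1) 3 of the 22 were above 0.6 (Ccl2 at 0.618, Ccl21a at 0.608 and Cx3cr1 at 0.603), against 4.03% of those genes, and again 0 passed the adjusted p. In residuals after lane and RNA concentration Ccl21a stood at 0.642 (permutation p adjusted 0.0878). Ccl12 reached r = 0.498 (rho = 0.513), and 0.709 without the 2 mice farthest out (permutation p adjusted over 22, 0.0229).

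All 231 pairs of the 22 genes were examined afterwards, a family added after the values were seen. Here 7 pairs passed an adjusted p of 0.05, and all 7 were positive. The share over pairs of other genes was not computed, so whether this number is particular to these genes is not known. The closest was Ccl6 with Ccl9, the pair whose upstream sequences are printed above (r = 0.914, permutation p = 1e-05, the smallest they can give, adjusted 0.00231; rho = 0.911). It was 0.856 without the 2 mice farthest out. The genes are neighbours on chromosome 11 of GRCm38 (83572919 to 83578636 and 83587882 to 83593087). Both are read from the minus strand. Ccl2 with Ccl7, neighbours on the same chromosome, had r = 0.839 (permutation p = 3e-05, adjusted 0.00308; rho = 0.841) and 0.797 without the 2 mice farthest out. Cxcl16 with Cxcl9, which lie on chromosomes 11 and 5, had r = 0.814 (permutation p = 4e-05, adjusted 0.00308; rho = 0.839). Across the family, 3 of the 15 pairs that lie within 1000 kb of each other passed. The median r was 0.12 over those 15 pairs and 0.07 over the others.

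The other 4 pairs all passed on r and not on rho. Ccl12 with the macrophage receptor gene Cx3cr1 had r = 0.755 (rho = 0.678), Ccl12 with Ccl7 0.713 (0.614), Ccl27a with Cxcl16 0.703 (0.604) and Cxcl12 with Ccl12 0.687 (0.641). Without the 2 mice farthest out these 4 stood at r = 0.601, 0.594, 0.633 and 0.583, none past the adjusted threshold with 16 mice. Lanes held 4 or 5 mice each, too few for a value within a lane. In residuals after lane and RNA concentration, Ccl6 with Ccl9 stood at r = 0.932 and Cxcl16 with Cxcl9 at 0.83, and Ccl2 with Ccl7 fell to 0.596 (permutation p adjusted 0.111), so that pair was no longer past the threshold, nor was Ccl12 with Cx3cr1 at 0.664 (adjusted 0.0817). The other 3 pairs were past it there, Cxcl12 with Ccl12 at r = 0.825, Ccl12 with Ccl7 at 0.765 and Ccl27a with Cxcl16 at 0.721. On log2(TPM + 1), 2 of these were not past it, Cxcl12 with Ccl12 at r = 0.401 (permutation p adjusted 0.312) and Ccl27a with Cxcl16 at r = 0.351 (adjusted 0.396), and Ccl6 with Ccl9 stood at 0.684. Without the 5 libraries with atrial transcripts the 7 pairs stood at r = 0.502 to 0.917. The points share library and tissue piece, and how far the pairs reflect shared cells was not tested.

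**Figure D4:**
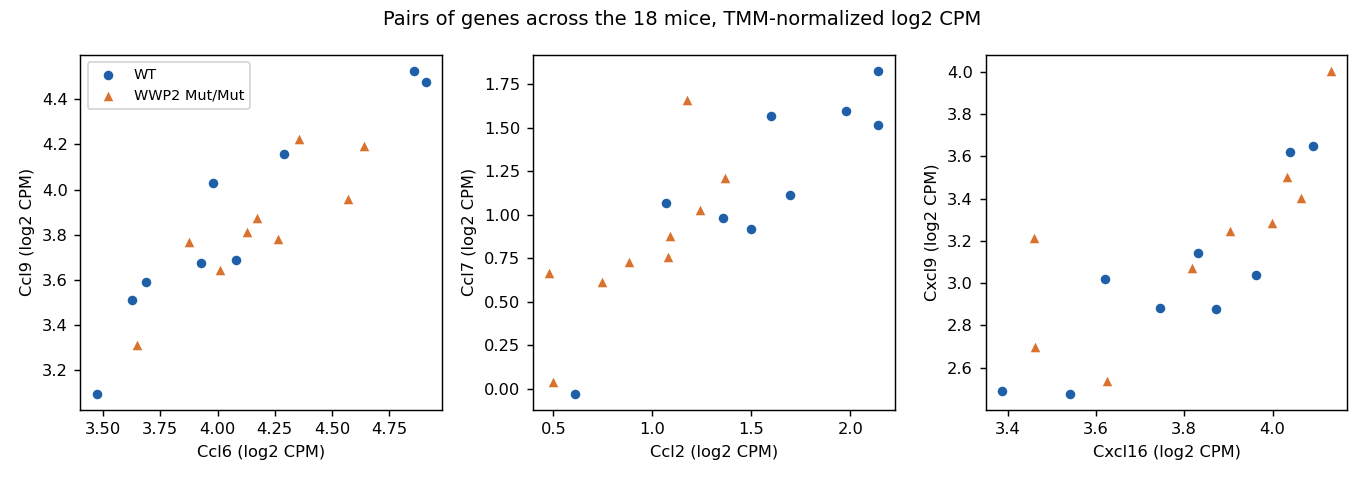
Log2 CPM (TMM-normalized) of Ccl9 against Ccl6, Ccl7 against Ccl2 and Cxcl9 against Cxcl16 in each of the 18 mice, WT as circles and WWP2 Mut/Mut as triangles. The values of each pair rise together over the 18 mice, with r of 0.914, 0.839 and 0.814.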

How the data were processed

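Poly(A)-selected RNA of the left ventricle was sequenced for 9 WT and 9 WWP2 Mut/Mut mice, grouped by the genotype in the labels, and separate mice are the replicates. The authors aligned reads with STAR 2.5.2b to m38, quantified Ensembl 89 genes with RSEM 1.2.31 and removed rRNA and mitochondrial genes. The deposited values are the expected count per gene, which RSEM estimates and which need not be whole, and the TPM, which sums to 671770 to 826381 per mouse. A deposited table gives the RNA concentration, the lane and a gene body coverage fraction whose definition is not given in the sources used here. Symbols were attached to Ensembl identifiers through GENCODE M21 (GRCm38).

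Expected counts were rounded, and genes with more than 1 count in total were tested with edgeR 4.0.16 (R 4.3.3; TMM, glmQLFit, glmQLFTest) with lane and centred RNA concentration in the model. SEs are the fold change divided by the root of F. DESeq2 1.42.0, limma 3.58.1 on log2(TPM + 1) and other filters, size factors and covariates were alternatives. Single genes were also compared by two-sided exact permutation over 48620 splits. Correlations used 100000 permutations. In a simulation of this comparison on 24082 genes, edgeR recovered 88.2% of genes changed 2-fold and 98.3% of those changed 4-fold. There 200 genes were changed at once, all drawn from genes with higher counts. Many chemokine and receptor genes, such as Ccl5 and Cxcl13, have fewer counts, so these shares do not apply to them. The genes named are Wwp2, members with a mean of 1 TPM or more, the 10 with the smallest p, fixed pairs, Ptprc and listed genes with an unadjusted p below 0.05; examples below 1 TPM were chosen after their values were seen. One item is not reported here. Members and lists were chosen with earlier results of these data known.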

Additional observations from a re-analysis of the deposited data

Results flagged for a closer look

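Within each genotype, the highest and the lowest of the 9 mice were compared with their nearest neighbour by Dixon's ratio at the 95% level. Over 52 groups of 9 mice whose values were not all 0, 4 were marked. Chance marks about 1 in 20 groups of normally spread values, which the low counts of Cxcr1 are not. Ccl8 was at 7.10 TPM in WWP2 Mut/Mut mouse 8-2, with the next mutant at 3.55 TPM. Cxcl9 was at 4.60 TPM in WWP2 Mut/Mut mouse 54-1, with the next at 2.94 TPM. Ccl25 was at 1.61 TPM in WT mouse 45-1, with the next at 1.21 TPM. Cxcr1 was at 0.05 TPM in WWP2 Mut/Mut mouse 22-3, with the next at 0.02 TPM.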

How the results depend on the processing

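No chemokine or receptor gene passed the FDR in any of the 12 other fits over all mice or in any fit without 1 mouse. The number with an unadjusted p below 0.05 was 5, and became 3 without covariates (4.60% of all genes) and 2 with lane alone (2.75%). Leaving out 1 mouse gave 3 to 5, with 3 without WWP2 Mut/Mut mouse 53-1 or WT mouse 67-1. Ackr3 and Ccl2 kept an unadjusted p below 0.05 in all 12 fits and in all 18 without 1 mouse, Ccl5 in 10 of 12 and 18 of 18, Cxcr4 in 9 of 12 and 10 of 18, and Cxcl13 in 8 of 10 and 14 of 18. The median log2 fold change of -0.05 became -0.17 in limma on log2(TPM + 1) with TPM above 1 in 2 mice, where that of all genes was -0.13. It was 0.00395 without covariates and 0.0091 with lane alone, and ran from -0.14 to 0.02 without 1 mouse. Ligand and receptor pairs past the threshold numbered 0, and 2 when centred within genotype (Ccl2 with Ccr2, Cxcl13 with Cxcr5), with 0 to 1 without 1 mouse (1 without WWP2 Mut/Mut mouse 33-1 or 62-1). Correlations with Ptprc past it numbered 0, with 0 to 1 without 1 mouse (1 without WWP2 Mut/Mut mouse 52-1) and 1 without the 2 mice farthest out. The 7 pairs among all members became 16 on log2(TPM + 1) (15 positive, and without 2 of the 7, Cxcl12 with Ccl12 and Ccl27a with Cxcl16), 12 when centred and 6 in residuals. The cause of these moves was not tested. Leaving out libraries with liver or atrial sums over 10 times the median gave no value, since none was that high, but Nppa was most of the atrial sum in 17 of 18 libraries. Without the 5 libraries high in Myl7, Myl4 and Sln, chosen after seeing the data, the count at an unadjusted p below 0.05 was 6, 0 passed the FDR and the median was 0.02. No paired analysis was possible because the genotypes share no mouse number. Depth limits genes below 0.1 TPM, where counts are few.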
